A study of Mus musculus with 4 samples.

Results

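Pericytes of the mouse aortic wall were looked for among single cells with a gate on transcript counts, and 322 of 25593 cells met it. The counts are unique molecular identifiers (UMIs), 1 per captured transcript. Cells with fewer than 500 genes, or with 10% or more of their UMIs mitochondrial, were left out first. Members were selected on measured UMIs of the gate genes: a cell was one when Kcnj8 plus Higd1b reached 2 UMIs, Rgs5 reached 3, Olfr78 plus Olfr558 stayed under 2, and Ptprc, Pecam1, Pdgfra and Msx2 were all at 0. The reference was smooth muscle, taken as the 5093 kept cells with 5 or more Myh11 UMIs and no UMI of Kcnj8 or Higd1b. The gate reads the same cells that are then described, so every gene in the members against smooth muscle is a description and carries no test.

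The study profiled collagenase-digested aorta of mice aged 16 to 20 weeks by 5′ droplet sequencing of single cells. Controls carried CNC-SMC-Cre;R26-tdT, a Cre driver with a tdT reporter, and the conditional knockouts carried CNC-SMC-Cre;Smad4flox/flox;R26-tdT, so that both genotypes share driver and reporter and the floxed Smad4 alleles set them apart. From each genotype the aortic arch (AA) and the descending thoracic aorta (TA) gave 1 library, and these 4 libraries are named CKO-AA, Ctr-AA, CKO-TA and Ctr-TA. The labels do not state which mural cells the driver recombines or how many animals entered a library, and no group has a replicate, so differences between libraries are given by size with 95% intervals of counting error only.

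Pericytes are the mural cells of small vessels. They sit in the basement membrane against the endothelium and are kept there by endothelial PDGF acting on their receptor Pdgfrb. In the aorta, small vessels run in the outer wall as vasa vasorum, while the media is built of smooth muscle with a thick contractile apparatus. Pericytes carry the vascular ATP-sensitive potassium channel, whose pore is Kcnj8 and whose regulatory subunit is Abcc9. This channel opens when cellular ATP falls and relaxes the cell. They are also known for Notch3, the receptor for Notch ligands of neighbouring cells, for the matrix protein vitronectin (Vtn), for the proteoglycan Cspg4, and for small mitochondrial proteins such as Ndufa4l2 and Higd1b that take the place of, or resemble, widely expressed respiratory proteins.

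The gate did not return 1 kind of cell. Of the 322 members, 250 held 5 or more Myh11 UMIs, with a median of 47, and 72 held fewer, with a median of 0. Myh11 encodes smooth muscle myosin heavy chain. In the 72 Myh11-low members, Vtn was counted in 57 cells, Ndufa4l2 in 56, Notch3 in 64, and Steap4, a metalloreductase found in brain pericytes, in 64. In the 250 Myh11-high members the same genes were counted in 13, 7, 72 and 13 cells. At least 2 of Vtn, Ndufa4l2 and Steap4 were present in 62 of the 72 Myh11-low and in 9 of the 250 Myh11-high members, and none of them in 7 and 230. By these markers the label pericyte therefore holds for most of the Myh11-low members, and is not borne out for the 7 with none of the 3 genes. The data go against it for the Myh11-high members, which are called Myh11-high gated cells from here on. The split at 5 Myh11 UMIs was chosen after these values had been seen, and 17 members lay between 3 and 9 Myh11 UMIs. Kcnj8 had a median of 8 UMIs in the Myh11-low and 2 UMIs in the Myh11-high members, but as a gene of the gate it does not bear on the label.

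**Figure D1:**
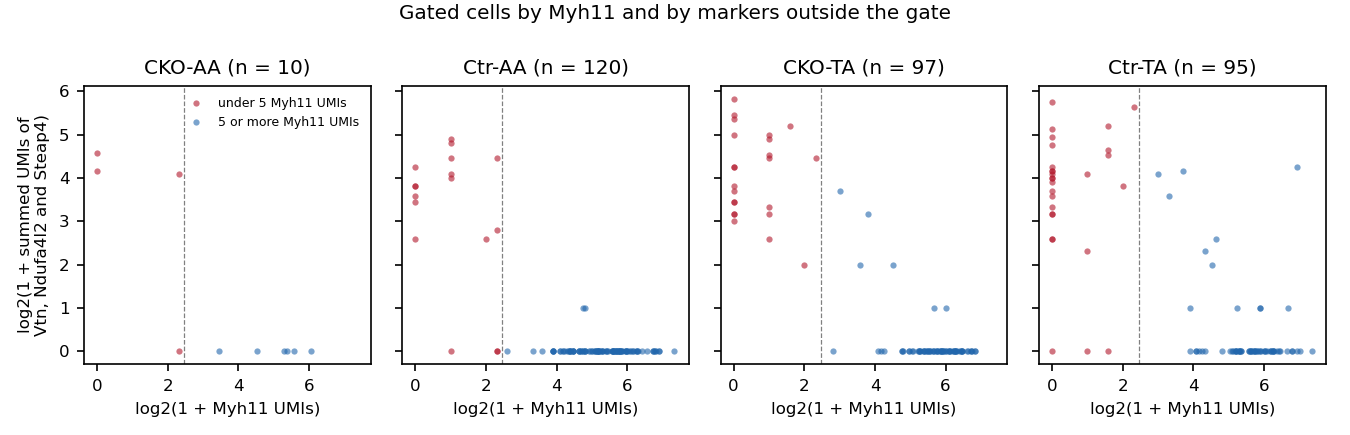
Each point is 1 of the 322 gated cells, placed by log2(1 + Myh11 UMIs) on the horizontal axis and log2(1 + summed UMIs of Vtn, Ndufa4l2 and Steap4) on the vertical axis, with 1 panel per library and a dashed line at the split of 5 Myh11 UMIs. The 72 Myh11-low members and the 250 Myh11-high gated cells lie on either side of the line, and 230 of the latter and 7 of the former have none of the 3 genes.

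Gated cells made up 0.171% of the kept cells of CKO-AA (10 of 5842), 1.39% of Ctr-AA (120 of 8644), 1.64% of CKO-TA (97 of 5901) and 1.82% of Ctr-TA (95 of 5206). Most of them were Myh11-high in each library, with 6, 103, 74 and 67 cells in that order. The Myh11-low members numbered 4, 17, 23 and 28, or 0.0685%, 0.197%, 0.390% (0.247 to 0.584) and 0.538% (0.358 to 0.776) of the kept cells. The intervals of CKO-TA and Ctr-TA overlap. These are shares of captured cells after digestion, and the number of vessels in the tissue was not measured. The genes required at 0 also left out unlike numbers of cells that met the other count limits. In CKO-AA, Ctr-AA, CKO-TA and Ctr-TA, Msx2 left out 5, 244, 0 and 2 cells and Pdgfra 13, 267, 24 and 25. Pecam1 left out 4, 232, 65 and 50 and Ptprc 3, 12, 6 and 3, where a cell can count under several genes. The gated shares are thus not like for like between libraries. CKO-AA has too few members for its levels to be read as more than counts.

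The Myh11-low members held few UMIs per cell outside CKO-AA. Their median was 3746, 3525 and 3485 UMIs per cell in Ctr-AA, CKO-TA and Ctr-TA, against 13283, 10333 and 11747 in smooth muscle and 15121, 14873.5 and 15824 in the Myh11-high gated cells. In CKO-AA, where 3 of the 4 are the mixed cells described below, the median was 14116 against 11318 in smooth muscle. A limit on Myh11 UMIs itself favours shallow cells on the low side and deep cells on the high side, so these depths are not independent of the split. The libraries hold 49407811 to 98866674 UMIs in 6351 to 9283 barcodes. CKO-AA was counted against another gene annotation than the others, and 27734 shared identifiers were used. Pairs of libraries share 33 to 65 kept barcodes and no gated barcode. Smad4, the targeted gene, was counted at 66.7, 72.6, 92.8 and 97.4 CPM (UMIs per 1000000 UMIs of the summed cells) in the smooth muscle of CKO-AA, Ctr-AA, CKO-TA and Ctr-TA. In the Myh11-low members it had 3, 10, 13 and 9 UMIs, which cannot show a difference. Reads of the whole gene need not show the loss of a floxed exon, and these counts do not tell whether pericytes of CKO mice carry the deletion.

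Of the 72 Myh11-low members, 8 carried 107 or more UMIs of genes that mark other cells, while the highest of the other 64 had 63 and their median was 8. They were 3 of the 4 cells of CKO-AA, 2 of Ctr-AA, 1 of CKO-TA and 2 of Ctr-TA, and they are called mixed cells here. The single CKO-TA cell and 1 of the Ctr-TA cells held 128 and 118 UMIs of the 4 mesothelial markers Msln, Upk3b, Krt19 and Wt1, in totals of 32122 and 28304 UMIs. The second Ctr-TA cell held 847 UMIs of smooth muscle markers, 506 of them Acta2. It had no UMI of Vtn, Ndufa4l2 or Steap4, and neither did some of the other mixed cells. These 3 genes thus do not bear out the pericyte label for every mixed cell. The limit of 100 UMIs was set after these values had been seen. No doublet caller was run. Many results that rest on mixed cells are given with and without them. For the Myh11-low members, a value given once includes the mixed cells unless said otherwise. Over the 64 other members, smooth muscle markers summed to 125 UMIs in CKO-TA and 161 in Ctr-TA, and fibroblast markers to 65 and 143. Mesothelial markers summed to 0 and 1, leukocyte markers to 3 and 10, and endothelial markers to 4 and 6, with Pecam1, Ptprc and Pdgfra at 0 by the gate. These cells were kept for few UMIs of such markers, so low sums follow in part from that limit.

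The sequences upstream of 4 pericyte genes and of the smooth muscle actin gene Acta2 are printed because Kcnj8, Abcc9, Vtn and Steap4 were all higher, and Acta2 lower, in the Myh11-low members than in smooth muscle, which for Kcnj8 the gate and the reference fix by definition. Kcnj8 (chr6:142564837-142571614, minus strand) and Abcc9 (chr6:142587862-142702315, minus strand) are neighbours in GRCm38, with 16247 bases between them, and both encode parts of 1 channel. Each run holds the 250 bases before the RefSeq transcription start in GRCm38.p6, read 5′ to 3′ on the gene's strand. The letters in capitals are TGGGAA or its complement TTCCCA, the core bound by RBPJ, the DNA-binding partner of Notch. The positions are chr6:142571615-142571864, minus strand, for Kcnj8; chr6:142702275-142702524, minus strand, for Abcc9; chr11:78498870-78499119, plus strand, for Vtn; chr5:7960222-7960471, plus strand, for Steap4; and chr19:34255374-34255623, minus strand, for Acta2.
Kcnj8: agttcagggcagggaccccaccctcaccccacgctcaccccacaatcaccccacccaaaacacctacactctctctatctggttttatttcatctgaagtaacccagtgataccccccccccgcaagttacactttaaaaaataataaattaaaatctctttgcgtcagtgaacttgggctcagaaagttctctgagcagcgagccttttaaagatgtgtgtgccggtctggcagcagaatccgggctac
Abcc9: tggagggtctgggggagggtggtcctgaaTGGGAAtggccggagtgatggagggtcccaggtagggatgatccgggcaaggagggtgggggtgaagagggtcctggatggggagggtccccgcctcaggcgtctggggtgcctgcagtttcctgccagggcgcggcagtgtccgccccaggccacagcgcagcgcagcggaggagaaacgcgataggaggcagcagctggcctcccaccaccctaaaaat
Vtn: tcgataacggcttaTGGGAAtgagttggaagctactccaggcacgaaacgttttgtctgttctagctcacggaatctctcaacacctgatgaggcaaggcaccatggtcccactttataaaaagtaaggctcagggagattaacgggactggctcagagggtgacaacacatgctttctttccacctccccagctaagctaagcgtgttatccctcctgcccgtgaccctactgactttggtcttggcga
Steap4: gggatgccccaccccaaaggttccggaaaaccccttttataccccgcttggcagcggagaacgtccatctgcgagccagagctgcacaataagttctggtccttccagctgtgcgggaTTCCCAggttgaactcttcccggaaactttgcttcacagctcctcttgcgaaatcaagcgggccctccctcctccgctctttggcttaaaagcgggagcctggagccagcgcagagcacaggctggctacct
Acta2: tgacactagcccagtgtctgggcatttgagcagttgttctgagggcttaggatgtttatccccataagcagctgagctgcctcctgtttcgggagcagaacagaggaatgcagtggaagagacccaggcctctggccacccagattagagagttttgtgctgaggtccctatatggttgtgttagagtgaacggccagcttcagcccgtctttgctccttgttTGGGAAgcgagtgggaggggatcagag

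TGGGAA, searched on both strands, occurs once in the windows of Abcc9 (at -221 from the start), Vtn (-236), Steap4 (-132) and Acta2 (-27), and not in that of Kcnj8. It is absent from the windows of Cspg4, Rgs5, Notch3 and Hic1 and present in those of the contractile genes Smtn and Csrp1. Of all 32851 mouse promoters of that length in the table, 21.6% hold it, so its presence does not separate the pericyte genes from the contractile ones. The hypoxia response core was searched only as ACGTG. This form, held by 16.6% of all promoters, was found only in Notch3 and Mylk among the 15 windows read. The form GCGTG was not searched, and the Vtn window, among others, holds gcgtg. A CArG box, the binding sequence of serum response factor, was searched only as CCWWWWWWGG, where W is A or T. This strict form was in none of the 15 (1.47% of all promoters). Looser forms with a G or C in the core were not searched, and the Acta2 window holds ccctatatgg and ccttgtttgg. These are matches of letters in a short window and say nothing of binding.

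The genes of the ATP-sensitive potassium channel were high in the Myh11-low members. Kcnj8 stood at 314 CPM in CKO-AA, 1476 in Ctr-AA, 2112 in CKO-TA and 1907 in Ctr-TA over the Myh11-low members, and at 166, 161, 169 and 161 in the Myh11-high gated cells. The reference is at 0 by its definition, so no ratio is given. Abcc9 is no gate gene. Its level was 198, 1043, 2256 and 1537 CPM in the Myh11-low members, 210, 121, 195 and 228 in the Myh11-high gated cells, and 101, 90.4, 184 and 143 in smooth muscle. On the log2 scale Abcc9 was 3.62 (3.43 to 3.80) above smooth muscle in CKO-TA and 3.43 (3.22 to 3.64) in Ctr-TA. For Abcc9 the Myh11-high gated cells thus lay near smooth muscle and far below the Myh11-low members in each library but CKO-AA. The paralogous channel genes Kcnj11, the pore of the pancreatic and neuronal channel, and Abcc8, its sulfonylurea receptor, had no UMI in the Myh11-low members of any library, beside 249 and 268 UMIs of Kcnj8 in CKO-TA and Ctr-TA and 266 and 216 of Abcc9. In smooth muscle of CKO-TA and Ctr-TA, Kcnj11 was at 6.48 and 5.05 CPM and Abcc8 at 3.15 and 2.37. Myh11-low sums of 117905 and 140567 UMIs are too small to show such levels, so these zeros do not set the members apart from smooth muscle.

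Receptors of the mural lineage were high in the Myh11-low members. Notch3 was counted at 347, 562, 1900 and 1380 CPM in CKO-AA, Ctr-AA, CKO-TA and Ctr-TA, against 32.6, 37.5, 182 and 170 in smooth muscle. The log2 difference was 3.39 (3.18 to 3.58) in CKO-TA and 3.02 (2.80 to 3.23) in Ctr-TA. Pdgfrb stood at 594, 1301, 2265 and 1629 CPM against 137, 165, 234 and 230. Agtr1a, the angiotensin II receptor, was at 82.5, 293, 967 and 704 CPM against 1.42, 3.08, 5.09 and 5.67, and the endothelin receptor Ednra at 99.1, 199, 331 and 263 against 8.83, 19.6, 37.6 and 36.0. These 4 receptors were higher than in smooth muscle in all 4 libraries, and both descending libraries exceeded Ctr-AA in each of them, with or without the mixed cells. Rgs5, a gate gene that damps G protein signals, stood at 3351, 2437, 4139 and 3465 CPM against 102, 298, 724 and 441. Over all 2086 genes that could be compared, 13.5% were at least 2-fold higher than smooth muscle in both descending libraries and 10.4% lower, and counts over gene lists are to be read against these shares. Of the 4 vasoactive receptors of the list that passed the low-count filter, Agtr1a and Ednra were higher and Ramp1, a partner of the calcitonin gene-related peptide receptor, was lower.

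Matrix and surface markers differed in how far they set the members apart. Vtn was at 231, 609, 526 and 562 CPM in the Myh11-low members of CKO-AA, Ctr-AA, CKO-TA and Ctr-TA, against 0.083, 0.747, 2.31 and 1.44 in smooth muscle. Steap4 was at 231, 1125, 2417 and 1828 CPM against 7.50, 3.14, 4.72 and 6.50. Cspg4, the NG2 proteoglycan, was at 82.5, 270, 1179 and 804 CPM against 456, 401, 557 and 599, and exceeded smooth muscle in the descending aorta by a log2 difference of 1.09 (0.83 to 1.32) in CKO-TA and 0.43 (0.14 to 0.69) in Ctr-TA. The arch levels rest on 5 UMIs in CKO-AA and 23 in Ctr-AA, and without the mixed cells Ctr-AA was at 340 CPM (216 to 511), an interval that holds the smooth muscle level of 401. Cspg4 alone would not separate these cells from the aortic smooth muscle of these libraries.

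**Figure D2:**
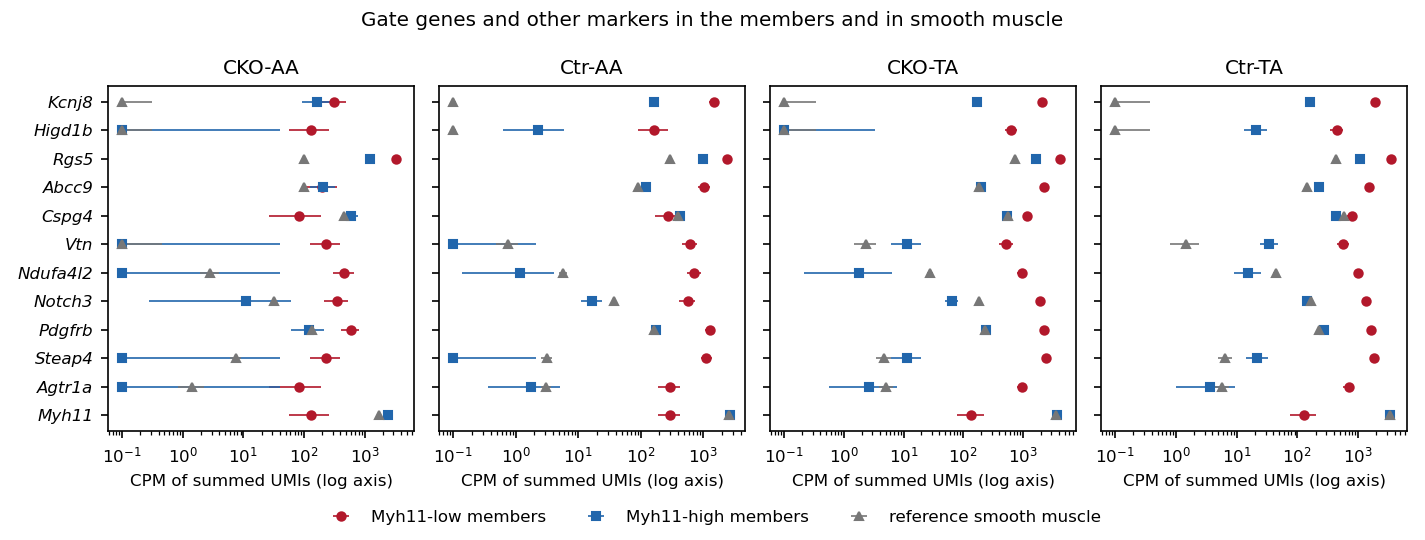
Levels in CPM (log axis, values of 0 drawn at 0.1) of pericyte marker genes in each library, for the Myh11-low members, the Myh11-high gated cells and smooth muscle, with exact 95% counting intervals. Vtn and Steap4 of the Myh11-low members lie between 231 and 2417 CPM and those of smooth muscle at 7.50 CPM or less, while Cspg4 overlaps in range.

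Because the members hold few UMIs, each cell was also thinned to 2000 UMIs, leaving out 3 of 23 Myh11-low cells of CKO-TA and 5 of 28 of Ctr-TA. Vtn was then found in 65.0% of the Myh11-low members of CKO-TA (13 of 20) and 60.9% of Ctr-TA (14 of 23), in 0.739% and 0.396% of smooth muscle, and in 0.218% and 0.416% of leukocytes, which should lack it. Before thinning the Myh11-low shares of Vtn were 91.3% and 78.6%, and the median depths of leukocytes were 5863 and 7505 UMIs. Steap4 was found in 95% and 78.3% of the members, in 0.950% and 1.59% of smooth muscle, and in 1.31% and 2.08% of leukocytes, so the share in smooth muscle is at or below that of cells that should lack the gene. Notch3 was found in 100% and 91.3% of the members, in 20.0% and 21% of smooth muscle and in 0.437% and 0.624% of leukocytes, which places the smooth muscle share of Notch3 above that of leukocytes. In the Myh11-high gated cells Notch3 was found in 5.41% and 19.4%, below or near the share in smooth muscle.

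The members also differed among themselves. Over the 22 CKO-TA cells left without the mixed cell, Kcnj8 ran up to 29 UMIs with a median of 7, Abcc9 up to 26 with a median of 11, and Notch3 up to 21 with a median of 8. Kcnj8, Abcc9, Notch3, Pdgfrb and Steap4 were counted in all 22, Vtn in 20 and Ndufa4l2 in 18. Over the 26 cells of Ctr-TA, Kcnj8 was counted in 25, with a median of 9, Notch3 and Abcc9 in 24 each, and Vtn and Ndufa4l2 in 21 each. Higd1b, which shares the gate with Kcnj8, was counted in 17 of 22 and 16 of 26 cells, so Kcnj8 carried the gate in the others. Just inside the gate, at 2 to 3 UMIs of Kcnj8 plus Higd1b, were 5 Myh11-low cells of CKO-TA with 1509 CPM of Abcc9 and 6 of Ctr-TA with 536. Just outside it, at 1 UMI, were 12 and 7 cells with 1069 and 187 CPM of Abcc9, and their Notch3 level was 1380 and 1310 CPM, against 182 and 170 in smooth muscle. Vtn had 13 UMIs in these cells of CKO-TA and 0 in those of Ctr-TA. Their Acta2 level was 2829 and 5990 CPM. The members above 3 UMIs had 283 and 472 CPM of Acta2 and 1821 and 1599 of Notch3. The members at 2 to 3 UMIs had 1760 and 19663 CPM of Acta2 and 2598 and 421 of Notch3. Of the 514 Acta2 UMIs behind that Ctr-TA level, 506 came from the mixed cell with 847 smooth muscle UMIs. The cells just outside were thus like the members above 3 UMIs in Notch3 and unlike them in Acta2, which does not extend to the members at 2 to 3 UMIs. The median depths of the cells just outside were 1983.5 and 2260 UMIs.

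The Myh11-low members counted other respiratory paralogs than smooth muscle did. Ndufa4 is a subunit of the last enzyme of the respiratory chain and Ndufa4l2 its hypoxia-related paralog. Ndufa4l2 was counted at 462, 726, 950 and 1003 CPM in the Myh11-low members of CKO-AA, Ctr-AA, CKO-TA and Ctr-TA, and at 2.83, 5.76, 27.3 and 43.8 in smooth muscle. It made up 57.1%, 68.1%, 83.0% and 75.4% of the UMIs of the pair, against 0.485%, 0.970%, 4.40% and 7.0% in smooth muscle. Without the mixed cells the share was 96.4% (91.0 to 99) in CKO-TA and 93.8% (88.6 to 97.1) in Ctr-TA, and Ndufa4 itself was at 46.5 and 93.8 CPM, against 594 and 582 in smooth muscle. Cox4i2, the paralog of the cytochrome oxidase subunit Cox4i1 that is known from lung and pericytes, made up 20.5%, 28.7%, 57.8% and 49% of its pair in the Myh11-low members and between 1.56% and 4.16% in smooth muscle. Without the mixed cells its share was 69.3% and 66.7% in CKO-TA and Ctr-TA. Higd1b made up 92.5% and 82.9% of the pair with Higd1a, but Higd1b is a gate gene and smooth muscle lacks it by definition.

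The rest of the respiratory chain did not differ in the same way. Of 33 measured genes of oxidative phosphorylation, 0 were at least 2-fold higher and 0 at least 2-fold lower in both descending libraries, and their median log2 difference from smooth muscle was -0.17 in CKO-TA and 0.22 in Ctr-TA. Cox4i1 was at 670 and 761 CPM against 912 and 913 in smooth muscle, within 2-fold. Of 12 measured genes of hypoxia and glycolysis, 1 was higher, the lactate dehydrogenase subunit Ldhb (log2 difference 2.71 and 2.12), and 0 were lower, which is no larger a share than the 13.5% and 10.4% over all genes. The pair shares and these lists were each taken from the same cells, so they are not independent of one another.

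**Figure D3:**
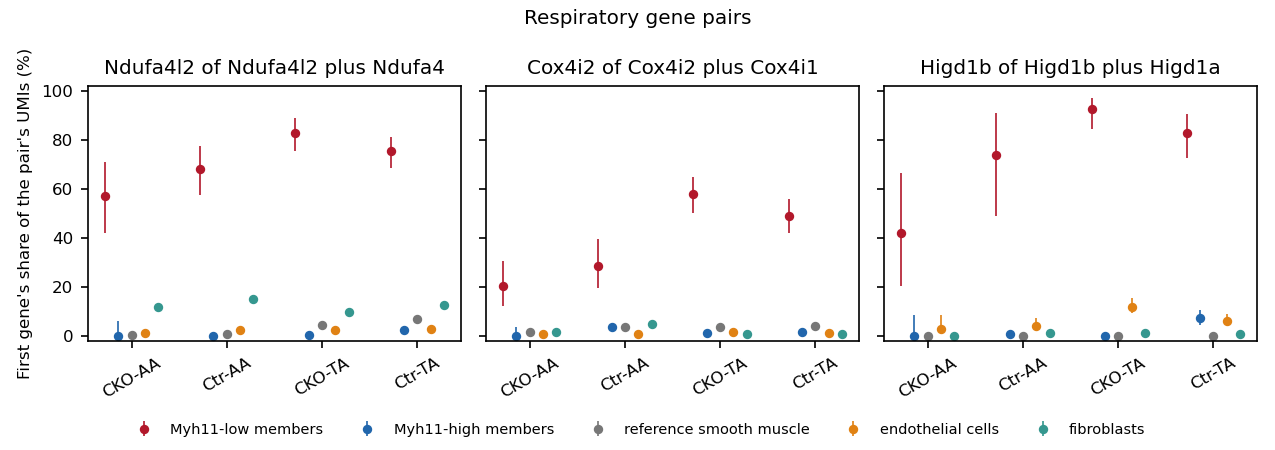
Share of the pair's UMIs (percent, vertical axis) that comes from the first-named paralog, by library, in the Myh11-low members, the Myh11-high gated cells, smooth muscle, endothelial cells and fibroblasts, with exact 95% binomial intervals. The share of Ndufa4l2 is 57.1 to 83.0% in the members and 0.485 to 7.0% in smooth muscle.

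Across all genes the gate as a whole had a smaller share of called genes than the Myh11-low members, under another filter. With all 322 members, 101 of 10501 genes (0.962%) were at least 2-fold higher than smooth muscle in both descending libraries and 139 (1.32%) at least 2-fold lower. The Myh11-low members supplied 9.56% of the gated UMIs of CKO-TA and 11.4% of those of Ctr-TA. Taken alone, with at least 10 UMIs expected from the smaller sum, they had 281 of 2086 genes higher (13.5%) and 216 lower (10.4%). Without the mixed cells, 239 of 1414 genes were higher (16.9%) and 219 lower (15.5%). The counts for all gated cells and for the Myh11-high gated cells needed 50 UMIs in the 2 sums instead. That filter admits genes of lower level, so the shares are not like for like. Under median-of-ratios scaling of the 2086 genes, the share of higher among all called genes was 48.6% in place of 56.5%. The Myh11-high gated cells had 9 of 10445 genes higher (0.0862%) and 189 lower (1.81%). When the reference was held to the same exclusion gates, 9 of 9232 genes were higher in them (0.0975%) and 33 lower (0.357%). Those 9 were the gate genes Rgs5 and Kcnj8 and Eya2, Kcnk3, Cpxm2, Fut10, Mmp11, Gpx3 and Colec11, named because they are few. Beyond the genes of the gate, little set the Myh11-high gated cells apart from other smooth muscle: Acta2 stood at 26310, 25910, 26177 and 21299 CPM in them and at 20695, 25309, 21465 and 20615 in smooth muscle. Of 8386 kept cells with 5 or more Myh11 UMIs, 5093 had no UMI of Kcnj8 plus Higd1b, 1951 had 1 and 1342 had 2 or more.

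The highest genes of the Myh11-low members, ranked by the smaller of the descending log2 differences, began with the carboxypeptidase Cpm (9.29, interval 8.16 to 10.91, in CKO-TA and 9.78, 8.34 to 12.31, in Ctr-TA). The neuronal calcium sensor Hpcal4 followed (8.88, 7.70 to 10.52, and 9.03, 7.52 to 11.59). Cpm was at 373 and 313 CPM in these cells and at 0.555 and 0.309 in smooth muscle. Next came Steap4 (8.99 and 8.13), Nostrin (8.72 and 7.93), a regulator of endothelial nitric oxide synthase traffic, and Vtn (7.81 and 8.56). Ass1 (6.68 and 6.88), an enzyme of arginine synthesis, was at 704 and 562 CPM against 6.85 and 4.74 in smooth muscle. Tnfrsf21 (7.22 and 6.36) is a death receptor, Il34 (6.33 and 6.89) a ligand of the macrophage receptor Csf1r, and Pcdh19 (6.29 and 6.16) a protocadherin. Other genes among the 25 highest included Agtr1a, Spaar, Col5a3, Hic1, Pla2g7, Igfbp3, Eps8, G0s2, Pla1a, Lamb1, Trpc6, Slc12a2, Cygb, H2-M9 and Hopx, with smaller differences of 5.34 or more. The same 25 were highest without the mixed cells. Several are small in number of counts outside the descending aorta: Hpcal4 had 0 CPM in CKO-AA and 11.7 in Ctr-AA, against 280 and 185 in CKO-TA and Ctr-TA.

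Genes of ion and solute transport went in both directions. Slc12a2, the sodium-potassium-chloride cotransporter, stood at 66.0, 480, 823 and 747 CPM in CKO-AA, Ctr-AA, CKO-TA and Ctr-TA against 15.7, 16.7, 17.2 and 16.6 in smooth muscle. Trpc6, a receptor-operated cation channel, was at 195 and 199 CPM in CKO-TA and Ctr-TA against 3.06 and 4.43. Of 8 measured calcium and chloride channels and pumps, 2 were higher, Trpc6 among them, and 1 lower, with medians of 0.04 and -0.14. Of 11 measured solute carriers and transporters, 2 were lower and 6 higher, among the latter Atp1b1 (log2 difference 4.86 and 4.26), a beta subunit of the sodium pump, and the insulin-regulated glucose transporter Slc2a4 (2.96 and 3.08). With the mixed cells left out, 5 of 9 were higher and 1 lower. Adenylyl cyclases differed in direction: Adcy3 (2.79 and 2.23) and Adcy6 (2.38 and 1.33) were higher, and Adcy5 was at 0 UMIs in CKO-TA, at least 15.3-fold lower than smooth muscle taking 3 UMIs as the limit, and -2.10 in Ctr-TA. Cygb, a globin of mesenchymal cells, was at 198, 316, 780 and 711 CPM against 13.1, 9.65, 16.6 and 16.2.

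Genes of the basement membrane went in both directions. Of 16 measured genes, 7 were higher and 5 lower, with medians of 0.95 and 0.46, against 0.07 and 0.09 over all 2086 genes. The counts were 8 of 15 higher and 4 lower without the mixed cells. Col4a1, the main collagen IV chain, stood at 2262, 2039, 3367 and 2369 CPM in CKO-AA, Ctr-AA, CKO-TA and Ctr-TA against 716, 690, 789 and 1012 in smooth muscle. Lamb1 (5.68 and 5.51), Egflam (4.89 and 5.00), Lamc3 (4.77 and 3.46), Nid1 (3.74 and 3.41) and Lama2 (2.88 and 2.02) were also higher, where Lamb1, Lamc3 and Lama2 are laminin chains, Nid1 links laminin to collagen IV, and Egflam binds dystroglycan. Npnt, the ligand of integrin alpha 8, was lower (-6.03, interval -11.92 to -4.14, and -2.48), and so was its receptor Itga8, at 17.0 and 235 CPM against 2530 and 2807. Itga8 was -6.90 (-10.27 to -5.37) and -3.56 with the mixed cells and -6.44 and -6.27 without them. Of 13 elastic fibre genes, 2 were higher and 4 lower, and without the mixed cells 0 of 10 were higher and 8 lower. Elastin (Eln), the core of the elastic lamellae, was at 93.3 CPM in CKO-TA and 448 in Ctr-TA against 2119 and 4575. The smaller of its descending log2 differences was -3.34 with the mixed cells and -5.05 without them.

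Contractile genes were low in these cells, and their levels are not independent of the split by Myh11 UMIs. Of 25 measured contractile genes 0 were higher and 21 lower, with medians of -3.14 and -2.06. Acta2 stood at 2311, 2132, 433 and 4041 CPM in CKO-AA, Ctr-AA, CKO-TA and Ctr-TA and at 186, 1065, 581 and 615 without the mixed cells, against 20695 to 25309 in smooth muscle. Cnn1, calponin, was -6.87 (-12.75 to -4.97, from 1 UMI) and -3.17 with the mixed cells and -6.41 and -5.06 without them. Lmod1, leiomodin, had 0 UMIs in CKO-TA, at least 31.1-fold below smooth muscle, and 171 CPM in Ctr-TA with the mixed cells in. In Ctr-TA, 89.1% of the Acta2 UMIs and 81.7% of the Tagln UMIs came from the mixed cell with 847 smooth muscle UMIs. Enah, Pi15, Rcan2, Nox4, Plin4, Mylk4, Dpysl3, Fbxl22, Col15a1, Myom1, Ccn2 and Smoc1 complete the 15 lowest genes with Itga8, Eln and Cnn1. Unlike the highest genes, this list changed without the mixed cells. Only Itga8, Eln, Cnn1, Ccn2 and Smoc1 then stayed among the 15 lowest, which began with Susd5 (smaller log2 difference -6.47) and Sost (-6.27).

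Target genes of TGF-beta went in both directions. Of 10 measured, 3 were higher, Tgfbi (4.26 and 4.23), Postn (2.30 and 1.43) and Col4a1 (2.10 and 1.23), and 6 were lower, among them Ccn2 (-5.32 and -3.08), Fn1 (-5.88 and -2.74), Pmepa1 (-4.71 and -2.30), Nox4 (-3.64 and -3.43) and Lmcd1, with medians of -3.38 and -2.22. In CKO-TA, Ccn2 and Fn1 had 3 UMIs each and Nox4 had 2, with intervals of -7.82 to -4.0, -8.38 to -4.55 and -7.01 to -2.11. The higher genes encode secreted matrix proteins, and the lower ones include the matrix proteins connective tissue growth factor (Ccn2) and fibronectin (Fn1). Without the mixed cells 3 of 10 targets were higher and 6 lower, and the smaller difference of Ccn2 was -4.975 in place of -3.08. Of 9 components of the TGF-beta and BMP pathways, 3 were higher and 0 lower: the coreceptors Eng (2.56 and 2.56) and Tgfbr3 (1.35 and 1.00) and the activin antagonist Fst (2.40 and 5.74).

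Several transcription factors and surface molecules of mesenchymal cells were higher. Of 11 measured mural and mesenchymal factors, 6 were higher, Hic1 (5.99 and 5.85), Ebf2 (4.17 and 4.48), Twist1 (2.63 and 2.57), Tbx2 (2.32 and 2.12), Ebf1 (2.08 and 2.08) and Nr2f2 (1.32 and 1.01), and Foxc1 was lower. Foxc1 was under the low-count filter without the mixed cells, when 7 of 9 factors were higher and 0 lower. Hic1 marks mesenchymal progenitors in several tissues, and Ebf1 and Ebf2 are early mesenchymal factors. Of 12 adhesion and guidance genes, 6 were higher and 2, Cdh13 and Ncam1, lower, and without the mixed cells 5 of 9 were higher and 2 lower. Cd36, a fatty acid carrier, stood at 82.5, 609, 941 and 1067 CPM in CKO-AA, Ctr-AA, CKO-TA and Ctr-TA against 9.99, 17.7, 42.4 and 59.0, and the gap junction genes Gja4 (2.84 and 2.02) and Gjc1 (2.08 and 2.10) were higher as well. Of 21 genes listed as enriched in brain pericytes, 10 were measured, and 8 were higher and 1 lower, with medians of 4.73 and 4.37. That list overlaps the genes that marked the cells and is no independent check of the label.

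Of 5 measured chemokine and cytokine genes, 4 were higher and 0 lower, among them Il34 and Cxcl12 (2.52 and 2.23), the ligand that holds Cxcr4-bearing cells, and C3 (3.35 and 3.37). C3 was at 1272 and 1081 CPM with the mesothelial mixed cells and did not pass the low-count filter without them, when 3 of 4 genes were higher. Of 4 measured Notch genes, 2 were higher and 0 lower, Notch3 and the ligand Jag1 (1.04 and 1.44). Without the mixed cells these and the target Heyl (1.21 and 1.39) were higher, 3 of 3 measured. Genes of the cell cycle and of the Hox clusters had no member above the low-count filter. Summed over the list, Hox genes were at 248, 293, 560 and 733 CPM in the Myh11-low members of CKO-AA, Ctr-AA, CKO-TA and Ctr-TA, at 111, 240, 423 and 421 in the Myh11-high gated cells, and at 144, 160, 366 and 326 in smooth muscle.

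**Figure D4:**
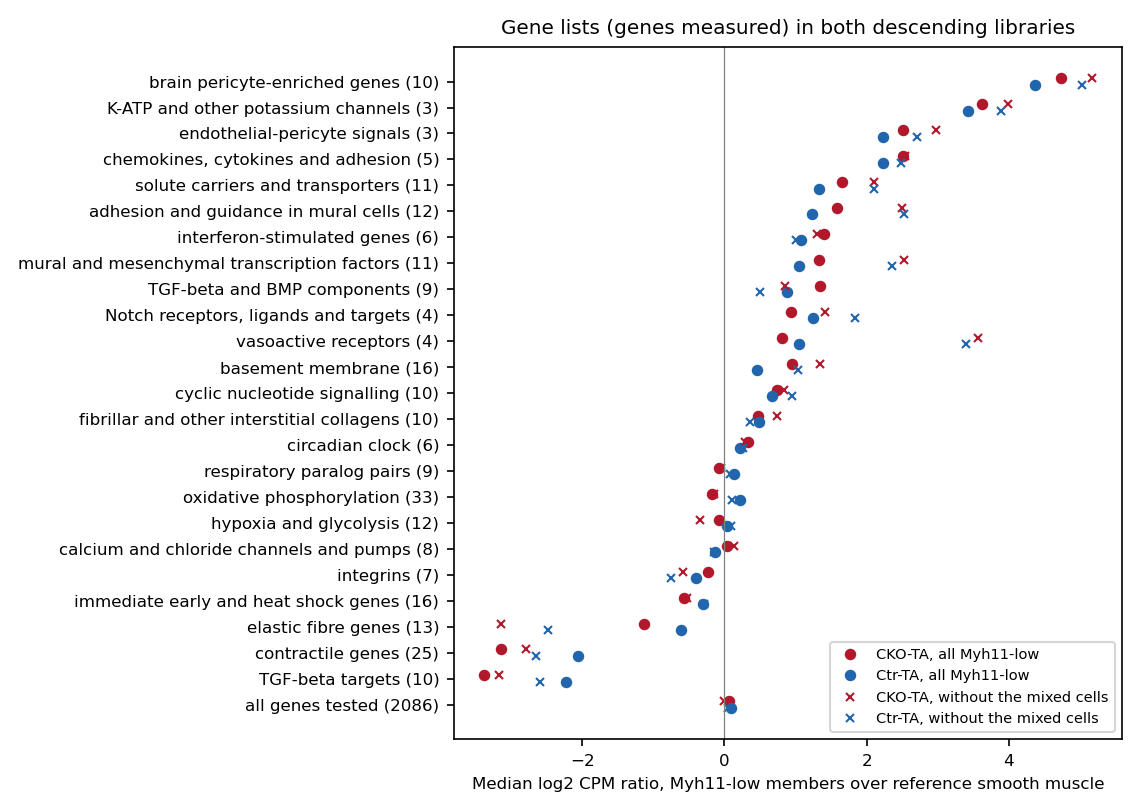
Median log2 difference between the Myh11-low members and smooth muscle for each gene list (1 point per descending library, dots for all members and crosses for the members without the mixed cells), beside the median over all genes tested. Contractile genes lie at -3.14 and -2.06 and genes enriched in brain pericytes at 4.73 and 4.37.

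The comparison of CKO-TA with Ctr-TA asks whether Smad4 deletion in the driver's cells changes the pericytes of the descending aorta. The markers of the 23 and 28 Myh11-low members lay within 2-fold of each other. The log2 ratio of CKO-TA over Ctr-TA was 0.15 for Kcnj8, 0.26 for Rgs5, 0.55 for Abcc9, 0.46 for Notch3, 0.48 for Pdgfrb, 0.40 for Steap4, -0.10 for Vtn and -0.08 for Ndufa4l2. Kcnj8 and Rgs5 are gate genes held to the same limits in both libraries, so their ratios are in part set by the gate. Of 861 genes with 50 or more UMIs, 17 were at least 2-fold higher in CKO-TA (1.97%) and 37 lower (4.3%). Under median-of-ratios scaling the share of higher among the called genes was 42.6% in place of 31.5%. Several of the genes furthest from 0 rest on single cells. Acta2 had 51 UMIs in CKO-TA and 568 in Ctr-TA (log2 ratio -3.21), and 89.1% of the latter came from 1 cell. Igfbp5 (1.63) drew 80.1% of its CKO-TA UMIs from 1 cell, and Slpi, a mesothelial secretion product, had 150 UMIs in CKO-TA, all from 1 cell, and 0 in Ctr-TA. Of 13 contractile genes 6 were lower, and without the mixed cells 0 of 12.

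Without the 8 mixed cells, 4 of 553 genes were at least 2-fold higher in CKO-TA (0.723%) and 10 lower (1.81%). In the reference smooth muscle the shares were 0.743% and 0.984% of 11580 genes, but that table holds more and lower genes, and the difference between the cell groups was not tested. The 4 higher genes were Dync1h1, the dynein heavy chain (1.44, interval 0.62 to 2.37), Epb41l2, a membrane skeleton protein (1.43, 0.63 to 2.33), the cyclase Adcy6 (1.21, 0.43 to 2.08) and Gm42418. The last is an unnamed transcript that alone held 66697 CPM in CKO-TA and 29073 in Ctr-TA, so it takes part of the total that scales the other genes. Epb41l2 had 44 UMIs in 17 of 22 cells of CKO-TA and 18 in 13 of 26 of Ctr-TA. Adcy6 had 42 UMIs in 19 cells and 20 in 12 cells. Their log2 ratios in smooth muscle were -0.07 for Dync1h1, -0.09 for Epb41l2 and 0.07 for Adcy6. With the mixed cells in, Cwc22 (1.77), Tns3, Tnks2, Ezr, Igf2r and Pla2g7 (1.02) were also higher. Without them the first 4 were under the low-count filter, and Igf2r and Pla2g7 were at 0.97 each.

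Among the lower genes Fst had 16 UMIs in CKO-TA and 71 in Ctr-TA (-1.96, interval -2.87 to -1.19), in 9 of 22 and 14 of 26 cells. Its ratio in smooth muscle had the other sign, at 1.37. Follistatin binds activins and some BMPs and keeps them from their receptors. Jun had 23 and 109 UMIs (-2.06, -2.80 to -1.43) and Fos 30 and 95 (-1.49, -2.15 to -0.90), both immediate early genes, with smooth muscle ratios of -0.52 and -0.47. In the Myh11-low members of Ctr-AA without mixed cells, Jun was at 1687 and Fos at 2249 CPM, against 267 and 349 in CKO-TA and 1135 and 990 in Ctr-TA, so the control libraries also differ from each other. Of 8 immediate early and heat shock genes measured 2 were lower and 0 higher. Dlk1, a Notch-like ligand, had 11 UMIs in 3 cells of CKO-TA and 41 in 4 cells of Ctr-TA (-1.69), and in smooth muscle it was at -0.85. Cyp4b1 (-1.63) and the endothelin receptor Ednrb (-1.17) were also lower, with smooth muscle ratios in the same direction of -0.90 and -0.93. The others were Errfi1 (-1.24), Krtcap2, Adamts12 and Ahnak.

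Lists that bear on Smad4 gave few calls. Of 4 components of the TGF-beta and BMP pathways measured without the mixed cells, Fst was lower and 0 were higher. Of 2 measured TGF-beta targets, and of 1 BMP target, 0 passed 2-fold in either direction. Basement membrane genes had 0 of 8 higher and 0 lower, with a median of 0.27 against -0.05 over the 553 genes. With 85986 and 96000 UMIs in these sums, 553 genes could be compared, and a difference in a gene of low level was not detectable at this depth.

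**Figure D5:**
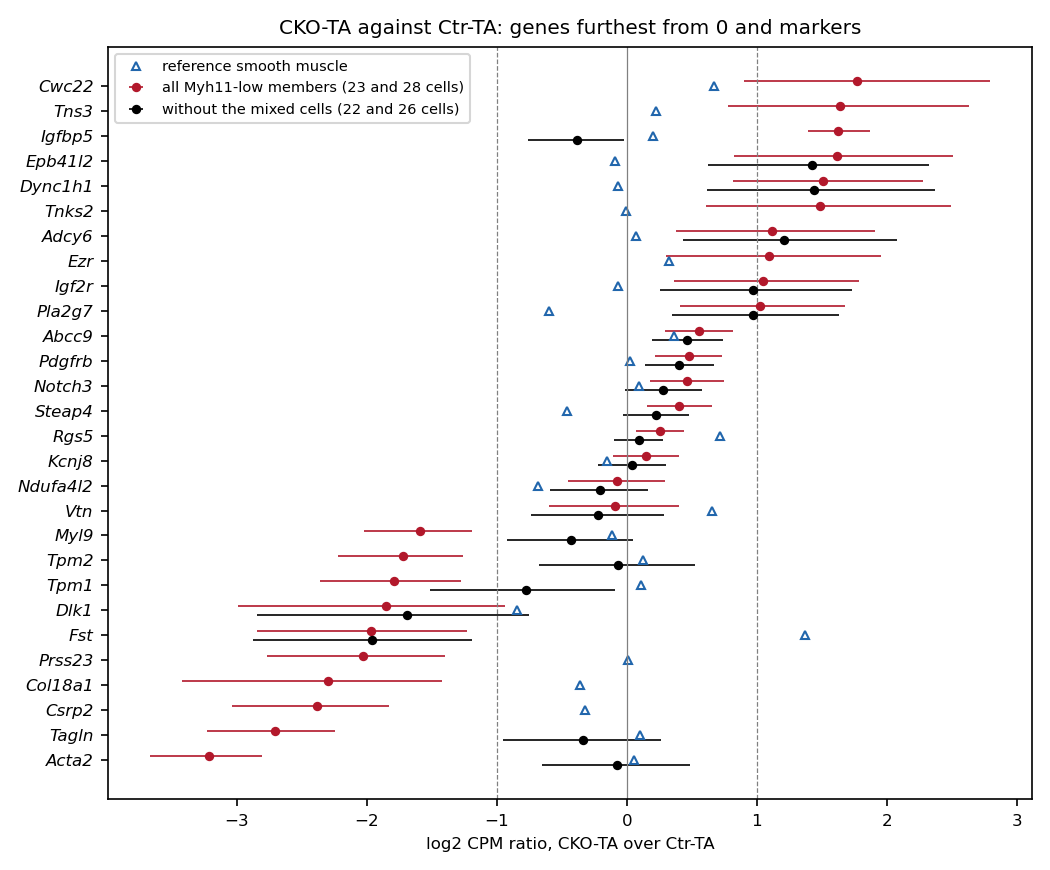
Log2 ratio of CKO-TA over Ctr-TA for named genes in the Myh11-low members, with and without the mixed cells, and in smooth muscle (triangles), with exact 95% counting intervals, dashed lines at 2-fold, and no second point for genes under the low-count filter. Acta2 lies at -3.21 with the mixed cells and -0.08 without them, and Fst at -1.97 and -1.96.

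The gate as a whole gave 27 of 6798 genes at least 2-fold higher in CKO-TA (0.397%) and 85 lower (1.25%), and the Myh11-high gated cells 29 of 6127 higher (0.473%) and 86 lower (1.4%). With 90.4% and 88.6% of the gated UMIs in Myh11-high cells, the comparison of all gated cells describes mainly these smooth muscle cells. Dlk1 (-2.11) and Errfi1 (-1.48) were among the 10 lowest named genes of the whole gate and were lower in the Myh11-low members. Those members are part of the gate, so the 2 results are not independent. Neither gene was among the 10 lowest named genes of the Myh11-high gated cells.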

How the data were processed

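Aortic cells of 4 libraries were measured with a droplet 5′ assay. The authors deposited raw UMI counts per gene and barcode, aligned to mm10 with Cell Ranger, 6.1.1 per the submitters' processing notes and 6.1.2 per the file headers. No source used here names the annotation release. Members and reference were gated as described above, and their counts were summed per library, scaled to CPM and compared as log2 ratios with a prior of 0.5 UMIs. Genes needed 50 UMIs in the compared sums, or 10 expected UMIs for Myh11-low members against smooth muscle. With 1 library per group there is no test. A gene was called by size, at 2-fold or more. Exact intervals of 95% (Clopper-Pearson for shares, conditional binomial for ratios) cover counting error only. No doublet caller was run and no cells were clustered. Members and gene lists were chosen with earlier results of these data known. Named genes were the gate genes, markers and paralog pairs, the 25 highest and 15 lowest against smooth muscle, the 10 furthest each way in CKO-TA against Ctr-TA, and up to 4 of each list. Ranked picks left out gate genes, unnamed transcripts, mitochondrial, ribosomal, haemoglobin and immune receptor genes, and genes whose level was under 0.2 of that in leukocytes, endothelial cells or fibroblasts. Some named genes are not reported here. Ratios were tested on simulated data. Python 3.11.15, numpy 2.4.6, scipy 1.17.1, pandas 2.3.3 and matplotlib 3.10.9 were used. Gene positions come from GENCODE and promoters from RefSeq.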

Additional observations from a re-analysis of the deposited data

Results flagged for a closer look

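The counts of CKO-AA hold a feature named RFP that the other libraries do not have and that the comparisons did not use, and it was seen in gated cells. It summed to 10 UMIs over the 4 Myh11-low members, with 1 to 5 UMIs in each, and to 23 UMIs over the 6 Myh11-high gated cells, with 1 to 11 in each. No gated cell reached 16 UMIs, while 31.9% of the 929 reference smooth muscle cells and 41.8% of the 416 fibroblasts did, beside 0.471% of the 1274 leukocytes and 2.70% of the 148 endothelial cells. The median was 6 UMIs in smooth muscle, 1 in leukocytes and 2.5 in endothelial cells. What RFP stands for is not stated by the labels, and 10 cells are too few to place the gated cells on either side.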

How the results depend on the processing

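No paired analysis was possible because each group has 1 library. The gated share in CKO-AA, Ctr-AA, CKO-TA and Ctr-TA was 0.0514%, 0.289%, 0.441% and 0.634% with stricter marker thresholds, 0.805%, 3.41%, 4.03% and 3.71% with looser ones, and 0.0685%, 0.197%, 0.390% and 0.538% without Myh11-high cells; it was 2.07% in CKO-TA at 1000 genes and 5% mitochondrial UMIs. The Myh11-low share was 0.0925% in Ctr-AA with stricter thresholds, 0.240%, 0.359% and 0.712% in CKO-AA, Ctr-AA and CKO-TA with looser ones, and 0.0171% in CKO-AA without the mixed cells. Against smooth muscle, the 101 genes higher in all gated cells became 495 (stricter), 42 (looser), 281 (Myh11-high left out), 261 (mean of per-cell CPM), 64 (thinned to 2000 UMIs), 162 and 49 (filters of 20 and 100 UMIs) and 32 (arch control required too). The 139 lower became 212 (stricter), 216 (Myh11-high left out), 25 (reference held to the exclusion gates, when 79.7% of called genes were higher in place of 42.1%), 59 (thinned), 222 and 75 (filters) and 72 (arch control). In CKO-TA against Ctr-TA, the 27 higher became 17 (Myh11-high left out), 66 (per-cell mean), 6 (thinned), 107 and 12 (filters), and the 85 lower became 45 (stricter), 37 (Myh11-high left out), 132 (per-cell mean), 6 (thinned), 273 and 33 (filters). In the Myh11-low members against smooth muscle, the 281 higher became 170 (members over 2 times the median UMIs left out), 98 (thinned), 568 and 125 (filters of 5 and 20 expected UMIs), and the 216 lower became 90 (thinned) and 118 (filter of 20 expected UMIs). Their 17 genes higher in CKO-TA became 3 (large members left out), 6 (thinned), 122 and 5 (filters) and 4 (mixed cells left out), and the 37 lower became 20 (stricter), 8 (large members left out), 9 (thinned), 164 and 14 (filters of 20 and 100 UMIs) and 10 (mixed cells left out). With limits of 3 or 10 Myh11 UMIs in place of 5, these Myh11-low counts stayed within 1.5 times. Thinned sums hold fewer UMIs and the filters test other numbers of genes. Against smooth muscle, leaving out Myh11-high cells also changed the filter to 10 expected UMIs. For the rest the cause was not tested. In CKO-TA against Ctr-TA the sign turned for the cell cycle list median of all gated cells (0.37 without large members) and, in the Myh11-low members, for Col18a1 (-2.30, against 1.20 with stricter thresholds, 0.44 without large members and 0.64 without mixed cells), Acta2 (0.021 without large members), Igfbp5 (-0.45 without large members and -0.39 without mixed cells) and Tpm2 (0.24 without large members). Median-of-ratios scaling shifted the median of all genes of the Myh11-low members against smooth muscle from 0.09 to -0.07. All settings of the Myh11-low members, the split by Myh11 included, were chosen after seeing the data. Depth limits the comparison of 23 with 28 cells to genes of high level.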

Other observations

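Several gene groups were also measured in the Myh11-low members of the descending aorta against smooth muscle. Of 6 interferon-stimulated genes 3 were at least 2-fold higher and 0 lower, with and without the mixed cells. Ifitm3, a membrane protein that restricts viral entry, stood at 3021, 1394, 1128 and 1480 CPM in CKO-AA, Ctr-AA, CKO-TA and Ctr-TA (log2 difference 2.28 in CKO-TA and 2.41 in Ctr-TA), and H2-D1, an antigen-presenting molecule, was at 1.70 and 1.32. Of 7 integrins Itga1, the collagen-binding alpha 1 chain, was higher (1.75 and 1.69), and 3 were lower, Itga8, Itga9 (-2.89 and -1.78) and Itgb5 (-1.59 and -1.23). Without the mixed cells 2 of 6 integrins were higher, Itga1 and Itga7, and 3 lower. Of 10 interstitial collagens 3 were higher and 0 lower, and without the mixed cells 3 of 9 were higher and 2, Col1a1 (-3.29 and -1.68) and Col1a2 (-1.50 and -1.78), lower. Col5a3 was furthest from 0 (6.04 and 5.95), Col6a3 was at 1.96 and 1.14, and Col1a1, the main fibrillar chain of fibroblasts, was at -2.69 and -0.57. Of 6 circadian clock genes, Hlf was higher (1.09 and 1.36) and 0 were lower, a share near the 13.5% of all genes, and without the mixed cells 0 of 4 were higher or lower.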
